A study of Danio rerio with 28 samples.

Results

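Loss of il22, the gene of the cytokine interleukin-22, was examined in whole guts of zebrafish larvae by comparing 4 il22 knockout libraries with 4 wild type libraries. They are the libraries titled il22ko and WT in the first of the deposited count tables, 8 of the 28 in the series, and were chosen by those titles. In the knockout, transcripts of the JAK-STAT3 pathway, cytosolic chaperones, the proteasome and the assembly of ribosomes were often lower. Genes of an epithelial NADPH oxidase and of the chaperonin were lower too, but were singled out after their values were seen. The gene lists themselves were also chosen with earlier results of these data known. Transcripts of amino acid breakdown, fat absorption, fatty acid oxidation and the lysosomes of absorptive cells were more often higher than lower. Of 10710 transcripts tested, 33.1% passed at an adjusted p of 0.05 and 34.3% did not overlap between the genotypes, so a single gene past the threshold is common here, and each group of genes is read against those shares.

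The study, by its title, connects interleukin-22 with gut motility and the microbiota in early life. Each knockout library (il22-/-) and each wild type library came from a pool of 10 to 15 guts dissected at 7 days post-fertilization, and both genotypes were sampled at that 1 age. The labels of these 8 libraries give neither the strain, the mutant allele nor the rearing, and do not say whether the genotypes were siblings. The replicates are pools of animals, so p-values measure the spread between pools.

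Interleukin-22 is made mainly by lymphoid cells in mammals and acts on epithelial cells rather than on leukocytes. Its receptor activates the kinases JAK1 and TYK2, which phosphorylate the transcription factor STAT3. STAT3 in turn raises genes of barrier defence, such as antimicrobial lectins, mucus proteins and epithelial oxidases, and raises its own inhibitors of the SOCS family. The zebrafish larval gut holds absorptive enterocytes, lysosome-rich enterocytes that digest luminal protein inside the cell, goblet cells and enteroendocrine cells, with enteric neurons and smooth muscle around them. In libraries from whole guts, fewer cells of a type and less RNA per cell cannot be told apart.

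Sequencing depth, counted in units of 1000000, lay between 30.24 and 33.42 for the knockout and between 31.9 and 37.95 for wild type. Levels are given in CPM (counts per 1000000 after TMM scaling), in the order of replicates 1 to 4. Markers of the intestinal epithelium were abundant in all 8 libraries: villin (vil1) lay between 1486 and 2061 CPM in the knockout and between 1280 and 1858 CPM in wild type, and cadherin 17 (cdh17) between 617 and 786 CPM in the knockout and between 582 and 673 CPM in wild type. The enterocyte gene fabp2 was near the limit of counting, at 0.164 to 0.587 CPM in the knockout and 0.217 to 0.51 CPM in wild type. Whether its counted transcript stands for the whole gene was not tested. On the first principal component, which held 60.5% of the variance, the genotypes separated in every library.

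The libraries also differed in the state of the daily clock, in a way the genotypes did not explain. The clock repressor gene nr1d1 (REV-ERB alpha) had 237, 247, 21.4 and 32 CPM in the knockout and 199, 18.7, 19.5 and 26.6 CPM in wild type. Knockout 1, knockout 2 and wild type 1 were thus high, and the other 5 libraries were low. The period gene per1a had 37.7, 1.05 and 2.42 CPM in knockouts 2 to 4 and 47, 6.61, 4.84 and 4.46 CPM in wild type. Knockout 1 lay between knockout 2 and the highest of the low libraries, so the same 3 libraries stood apart. The activator bmal1b went the other way, with 2.96, 2.75, 13.7 and 16.9 CPM in the knockout and 4.39, 11.5, 11.8 and 12.5 CPM in wild type. The output gene dbpa followed nr1d1, with 7.54, 7.72, 1.18 and 1.03 CPM in the knockout and 7.36, 1.94, 2.48 and 1.9 CPM in wild type. None of these 4 genes passed the test between genotypes (adjusted p = 0.533, 0.951, 0.878 and 0.759 by edgeR's quasi-likelihood test with Benjamini-Hochberg adjustment). Sampling times are not in the labels.

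Other clock genes separated the genotypes in all 8 libraries. The repressor gene nfil3-6 had 90.2, 95.3, 97.4 and 113 CPM in the knockout and 50.9, 30.8, 36.3 and 49 CPM in wild type (log2 fold change 1.25 ± 0.16 (SE), adjusted p = 0.00047). The REV-ERB beta gene nr1d2a had 95.1, 125, 131 and 192 CPM in the knockout and 66.4, 62.4, 50.6 and 62.6 CPM in wild type (adjusted p = 0.00208), and did not pass in the libraries high in nr1d1 alone (adjusted p = 0.0656). Both were higher in every knockout library. The repressor gene bhlhe41 was lower in every knockout library, at 1.6, 1.54, 0.329 and 0.42 CPM in the knockout and 11.9, 6.25, 6.33 and 6.19 CPM in wild type (log2 fold change −2.96 ± 0.50, adjusted p = 0.0024). Of 37 clock genes tested 3 rose and 2 fell, against 16.1% higher and 17.0% lower among all transcripts tested.

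**Figure D1:**
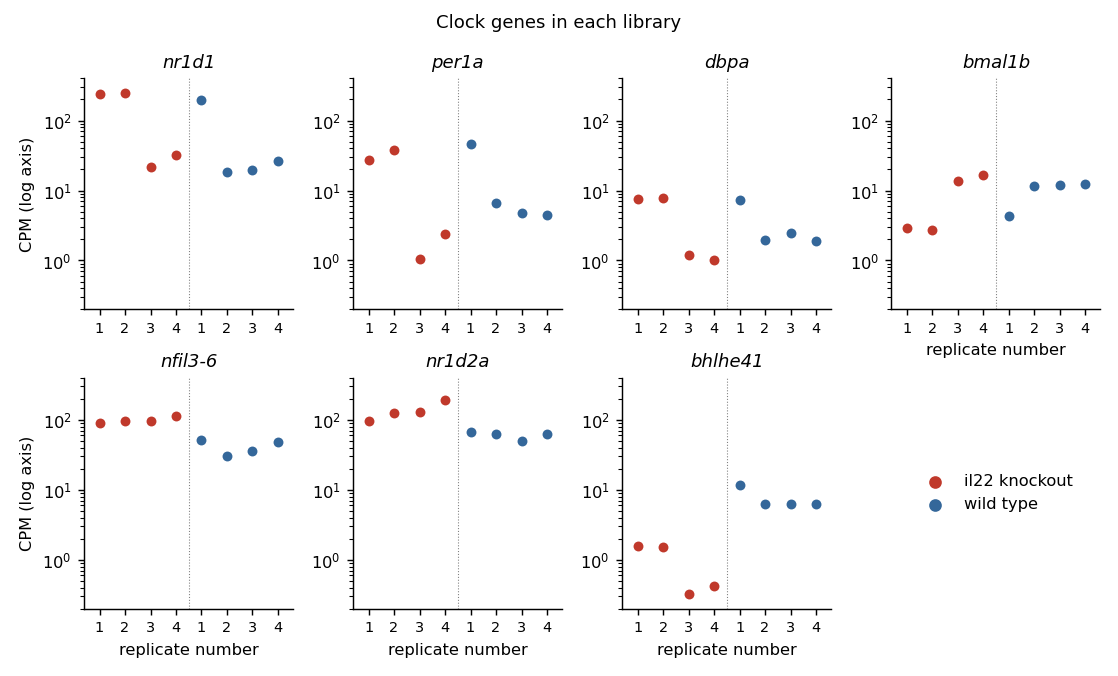
Levels of 7 clock genes in CPM, on a log axis, in each of the 4 il22 knockout libraries (red, left) and the 4 wild type libraries (blue, right), numbered by replicate. For nr1d1, per1a, dbpa and bmal1b the libraries knockout 1, knockout 2 and wild type 1 stand apart from the other 5, whereas nfil3-6, nr1d2a and bhlhe41 separate by genotype.

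Because of this split, the comparison was also run within each state. Among the 5 libraries low in nr1d1, knockouts 3 and 4 against wild types 2 to 4, 1682 transcripts rose and 1649 fell. Among the 3 libraries high in nr1d1, knockouts 1 and 2 against wild type 1, 2045 rose and 1885 fell, where the lone wild type library is assumed to vary as the knockouts do. These comparisons share no library, and 10789 transcripts were tested in both. Of 2157 called in both, 1111 were higher in both, 981 were lower in both and 65 went opposite ways, and the 2157 are 65.2% of the calls made among these transcripts in the low libraries and 55.5% of those in the high ones. Counts within each state are given beside several of the lists that follow, and those of the high libraries rest on a single wild type library throughout.

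The knocked-out gene was measured first, since it checks the labels. il22 had 0.154, 0.433, 1.91 and 1.13 CPM in the knockout and 5.43, 3.99, 6.76 and 13.8 CPM in wild type. The genotypes did not overlap, and transcript was still counted in all 4 knockout libraries (log2 fold change −3.05 ± 0.67, adjusted p = 0.0101; two-sided exact permutation p = 0.0286, the smallest that 4 against 4 libraries allow). In the 5 libraries low in nr1d1 alone it did not pass (log2 fold change −2.42, adjusted p = 0.0742). il26, the neighbouring gene of a related cytokine, had 0 to 0.428 CPM in the knockout and 0.535 to 2.11 CPM in wild type, and did not pass (adjusted p = 0.0525). It stood near the threshold and passed in 7 of the other settings tried, among them without knockout 3 (adjusted p = 0.0288) and by DESeq2 (adjusted p = 0.0151). Of the 10 tested genes nearest to il22, 5 on each side in the order of the RefSeq annotation, 10.0% were called, and of the nearest 100 33.0% were, against 33.1% over all transcripts tested.

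Genes of JAK-STAT3 signalling were lower as a group: of 21 tested, 10 fell, 2 rose and 9 did not pass. Their median log2 fold change was −0.30 against −0.01 over all transcripts. The genes tested include receptors of other cytokines, but neither TYK2 nor a signalling chain of the IL-22 receptor. The transcription factor gene stat3 had 50.8, 53, 75.8 and 78 CPM in the knockout and 202, 221, 193 and 237 CPM in wild type (log2 fold change −1.73 ± 0.15, adjusted p = 6.1e-05). Its feedback inhibitor gene socs3b had 25.7, 26.7, 37.4 and 46.3 CPM in the knockout and 151, 107, 115 and 174 CPM in wild type (log2 fold change −2.01 ± 0.23). The gap between the genotypes was wider than the range within either for stat3, and neither gene overlapped. The paralog socs3a had 70.5, 65.7, 147 and 187 CPM in the knockout and 318, 172, 441 and 748 CPM in wild type (log2 fold change −1.84 ± 0.54, adjusted p = 0.0343), with knockout 4 above wild type 2. It did not pass when knockout 1, 2 or 3 or wild type 3 or 4 was left out (adjusted p = 0.0635 to 0.0843).

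On the receptor side, lifrb, a receptor gene of the leukaemia inhibitory factor family, had 9.57, 8.87, 7.14 and 6.2 CPM in the knockout and 25.2, 17.1, 17.1 and 20.7 CPM in wild type (log2 fold change −1.33 ± 0.17, adjusted p = 0.00043). The decoy receptor gene il22ra2 had 1.85, 1.58, 2.14 and 1.81 CPM in the knockout and 5.55, 6.2, 4.37 and 4.85 CPM in wild type (log2 fold change −1.51 ± 0.16). Both were lower in all 4 knockout libraries. The kinase gene jak1 fell by less, with 77.4, 73, 66 and 72.6 CPM in the knockout and 110, 94.7, 95.3 and 101 CPM in wild type (log2 fold change −0.47 ± 0.07, adjusted p = 0.00123). Its relatives jak2a and jak2b averaged 75.2 ± 5.32 and 55.6 ± 2.59 CPM in the knockout and 68.3 ± 1.90 and 54.2 ± 1.13 CPM in wild type (SD, n = 4) and did not pass (adjusted p = 0.133 and 0.652, quasi-likelihood test).

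Downstream, mcl1a, a survival gene of the BCL2 family, had 260, 248, 281 and 314 CPM in the knockout and 407, 369, 440 and 421 CPM in wild type (log2 fold change −0.57 ± 0.09, adjusted p = 0.00138). The opposite direction was seen for cisha, a SOCS-family inhibitor that STAT5 is known to induce in mammals, with 91.6, 99.8, 103 and 133 CPM in the knockout and 64.7, 52.7, 68.3 and 84.9 CPM in wild type (log2 fold change 0.66 ± 0.16, adjusted p = 0.0112). The kinase gene pim1 was likewise higher, by 0.36 ± 0.10 on the log2 scale, but did not pass without knockout 3 or 4 or wild type 1, 2 or 3 (adjusted p = 0.0509 to 0.0604). Within the clock states the pathway counts were 9 lower and 1 higher of 22 in the low libraries, and 9 lower and 2 higher of 22 in the high ones.

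Epithelial NADPH oxidase makes reactive oxygen at the gut surface. The 4 oxidase genes described here were singled out after their values were seen, from a list of 29 oxidase and peroxide genes of which 8 rose and 9 fell. The catalytic subunit gene nox1 had 2.59, 3.21, 8.45 and 7.59 CPM in the knockout and 29.3, 29.5, 28.2 and 56.6 CPM in wild type (log2 fold change −2.72 ± 0.44, adjusted p = 0.00276). The organizer gene noxo1a averaged 6.6 ± 3.05 CPM in knockout libraries and 36.1 ± 20.5 CPM in wild type ones (SD, n = 4 each) with no overlap (log2 fold change −2.45 ± 0.48). Its paralog noxo1b had 0.8, 0.649, 3.55 and 2.55 CPM in the knockout and 20.6, 19, 18.4 and 58.5 CPM in wild type. Wild type 4 was the highest library for all 3 genes, and no knockout library reached a wild type one. In the libraries low in nr1d1 alone, noxo1b did not pass. The membrane subunit gene cyba, which several oxidases share, had 23, 26.5, 29 and 23.6 CPM in the knockout and 40.6, 43, 44 and 42.4 CPM in wild type (log2 fold change −0.74 ± 0.08, adjusted p = 0.00019).

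Genes that remove peroxide split by member. Glutathione peroxidase gpx1b had 99.5, 95.4, 84.5 and 73.8 CPM in the knockout and 324, 265, 308 and 326 CPM in wild type (log2 fold change −1.79 ± 0.11, adjusted p = 6.7e-06). Peroxiredoxin prdx1 averaged 24.3 ± 6.63 CPM in knockout libraries and 93.4 ± 29.2 CPM in wild type ones (SD, n = 4 each; log2 fold change −1.94 ± 0.27). Both were lower in every knockout library. In the other direction, prdx4, a peroxiredoxin of the secretory pathway, had 115, 122, 93.2 and 120 CPM in the knockout and 77.3, 58.5, 67.5 and 70.7 CPM in wild type (log2 fold change 0.72 ± 0.11, adjusted p = 0.0011), and the membrane lipid peroxidase gene gpx4a had 29, 24.7, 29.2 and 37 CPM in the knockout and 17.3, 10, 11.2 and 15.6 CPM in wild type (log2 fold change 1.15 ± 0.19). The antioxidant regulator gene nfe2l2a was also higher in every knockout library, by 0.55 ± 0.07 on the log2 scale.

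**Figure D2:**
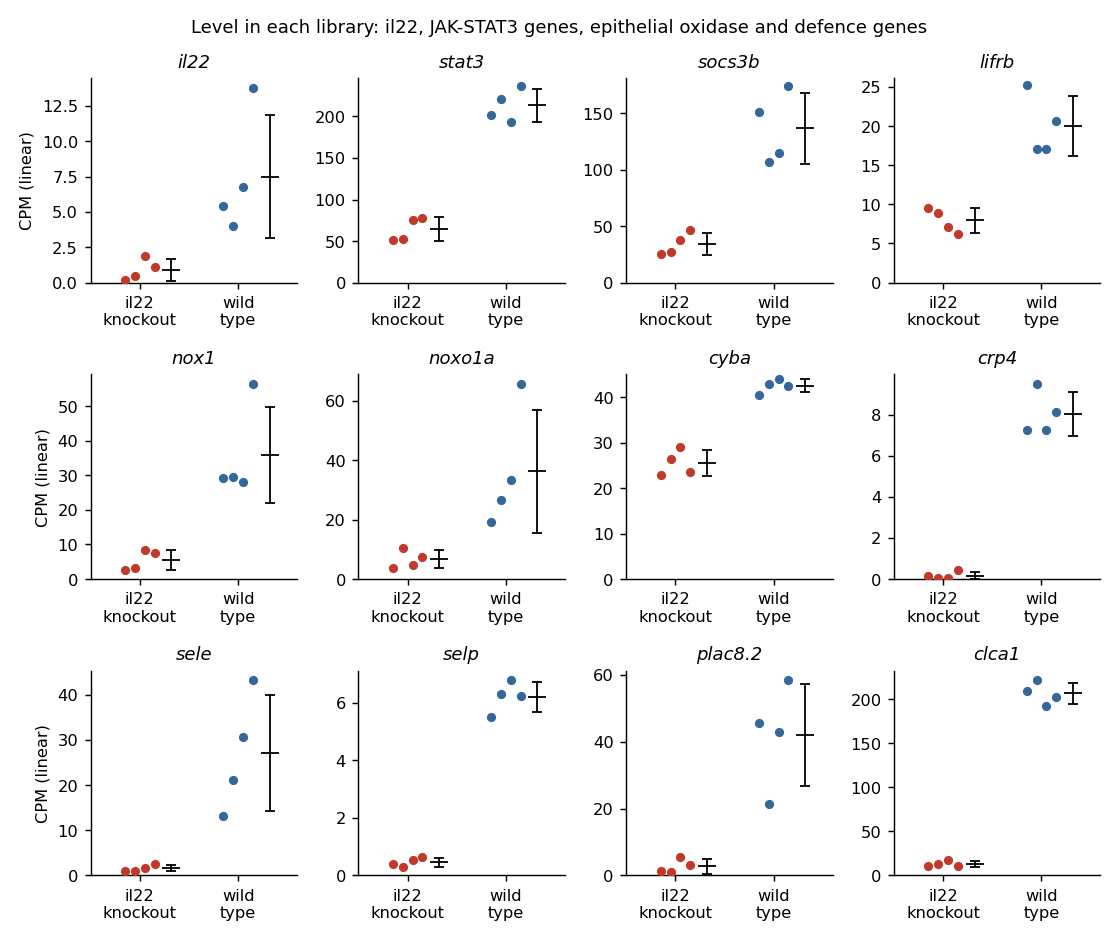
CPM on a linear axis in each il22 knockout library (red, left) and each wild type library (blue, right) for il22, 3 genes of the JAK-STAT3 list, 3 oxidase genes and 5 defence or mucus genes; bars give the mean and SD of 4 libraries. In all 12 panels the knockout libraries lie below the wild type ones, and wild type 4 is the highest library for il22, stat3, socs3b, nox1, noxo1a, sele and plac8.2.

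Among defence genes, a pentraxin and a lectin were far lower. The pentraxin gene crp4, of a family of close copies whose reads the counting could have split, had 0.123, 0.0618, 0.0658 and 0.42 CPM in the knockout and 7.27, 9.48, 7.23 and 8.12 CPM in wild type (log2 fold change −5.56 ± 0.41, adjusted p = 2.1e-05). The intelectin gene itln2, a lectin that binds microbial glycans, had at most 0.23 CPM in the knockout and at least 8.44 CPM in wild type. These were the only genes that passed among 12 antimicrobial and lectin genes tested. That lower share, 16.7%, is near the 17.0% among all transcripts tested. Serum amyloid A (saa), an acute-phase gene that microbes induce in larval guts, had 2.46, 3.61, 21.5 and 22.7 CPM in the knockout and 4.47, 14.9, 21.6 and 25.4 CPM in wild type, so that the genotypes overlapped (adjusted p = 0.746).

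Selectins, which in mammals slow leukocytes on the vessel wall, were also far lower. The E-selectin gene sele had 1.08, 1.02, 1.61 and 2.45 CPM in the knockout and 13.2, 21.2, 30.7 and 43.2 CPM in wild type (log2 fold change −4.14 ± 0.45, adjusted p = 0.00036). The P-selectin gene selp had 0.4, 0.278, 0.526 and 0.646 CPM in the knockout and 5.52, 6.3, 6.79 and 6.22 CPM in wild type (log2 fold change −3.74 ± 0.22, adjusted p = 4.8e-06). For both genes the highest knockout library was several-fold below the lowest wild type one. plac8.2 had 1.17, 0.989, 5.62 and 3.1 CPM in the knockout and 45.5, 21.4, 43 and 58.3 CPM in wild type (log2 fold change −3.96 ± 0.60, adjusted p = 0.00229).

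Single genes of microbial sensing fell by smaller amounts. They belong to the list of inflammation and NF-kB genes, of which 15.8% fell, against 17.0% of all transcripts tested. The adaptor gene myd88, which passes on signals of most Toll-like receptors, had 18.4, 15.4, 15.4 and 14.3 CPM in the knockout and 29.2, 25.8, 27 and 35.1 CPM in wild type (log2 fold change −0.88 ± 0.11, adjusted p = 0.00046). The flagellin receptor gene tlr5b fell by 0.41 ± 0.09 and the NF-kB subunit gene rela by 0.38 ± 0.09 on the log2 scale, both without overlap. Also called lower were tlr2 and irak4 (log2 fold change −1.67 and −0.46), whereas traf6 and ripk2 did not pass (−0.09 and −0.06). The chemokine gene cxcl20 had 8.13, 7.11, 5.13 and 4.88 CPM in the knockout and 15.3, 23.7, 24.6 and 24 CPM in wild type. The NF-kB inhibitor gene nfkbiaa was higher, by 0.59 ± 0.12. Of 38 inflammation and NF-kB genes 5 rose and 6 fell, and the cytokine genes il1b and tnfa did not pass (adjusted p = 0.422 and 0.0512). Of the libraries left out in turn, only the omission of knockout 2 let tnfa pass (adjusted p = 0.0328).

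Few genes of antigen presentation and of the interferon response passed the test. The invariant chain gene cd74a, which escorts MHC class II, had 13.1, 17.8, 20.5 and 17.7 CPM in the knockout and 6.88, 8.99, 7.44 and 6.99 CPM in wild type (log2 fold change 1.19 ± 0.14, adjusted p = 0.0003), and cd74b rose by 0.91 ± 0.12. Of 22 such genes 5 rose and 1 fell, with a median log2 fold change of 0.28, and without knockout 2 the count was 8 higher. Among 24 interferon response genes 4 rose and none fell, including the RNA sensor gene ifih1, which averaged 25.4 ± 2.03 CPM in knockout libraries and 12.7 ± 3.4 CPM in wild type ones (SD, n = 4 each; log2 fold change 1.00 ± 0.16). The interferon count was 9 higher without wild type 2, 3 of 26 in the libraries low in nr1d1 and 9 of 26 in the high ones. Leukocyte lists moved little: 3 of 16 neutrophil genes rose and 1 fell, 1 of 13 macrophage genes fell, and 1 of 20 lymphocyte genes rose and 3 fell.

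Of 12 mucus and goblet cell genes 4 fell and 1 rose. clca1, whose product goblet cells secrete in mammals, had 10.2, 12.7, 18 and 10.8 CPM in the knockout and 210, 222, 193 and 203 CPM in wild type, a log2 fold change of −4.0 ± 0.18. The transmembrane mucin gene muc13b had 1001, 1008, 1182 and 1074 CPM in the knockout and 2543, 2297, 2340 and 2654 CPM in wild type, with no overlap (log2 fold change −1.21 ± 0.08). The secretory-lineage factor gene foxa3 fell by 0.52 ± 0.08, whereas the mucin sialyltransferase gene st6galnac1.1 rose by 0.52 ± 0.16 with an overlap between genotypes, and did not pass when any library but knockout 4 was left out (adjusted p = 0.0578 to 0.0864).

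Immediate early genes, which respond to stimulation within minutes, fell in part and were uneven among wild type libraries. junba had 6.99, 8.37, 15.9 and 17 CPM in the knockout and 59.3, 40.7, 84.9 and 201 CPM in wild type (log2 fold change −3.00 ± 0.58, adjusted p = 0.00699). egr1 had 6.9, 6.4, 7.57 and 6.94 CPM in the knockout and 16, 13.6, 52.6 and 104 CPM in wild type. Wild types 3 and 4 were the highest for both genes. egr1 passed over all 8 libraries (log2 fold change −2.74 ± 0.68, adjusted p = 0.0188) and did not pass when any 1 knockout library was left out (adjusted p = 0.0516 to 0.0579). Of 42 such genes 11 fell and 3 rose, or 6 fell without knockout 1 or without knockout 2, with 3 lower of 42 in the libraries low in nr1d1 and 19 lower of 40 in the high ones. fosab, another member, overlapped between genotypes, at 4.56 to 67.2 CPM in the knockout and 16.6 to 401 CPM in wild type (adjusted p = 0.23).

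**Figure D3:**
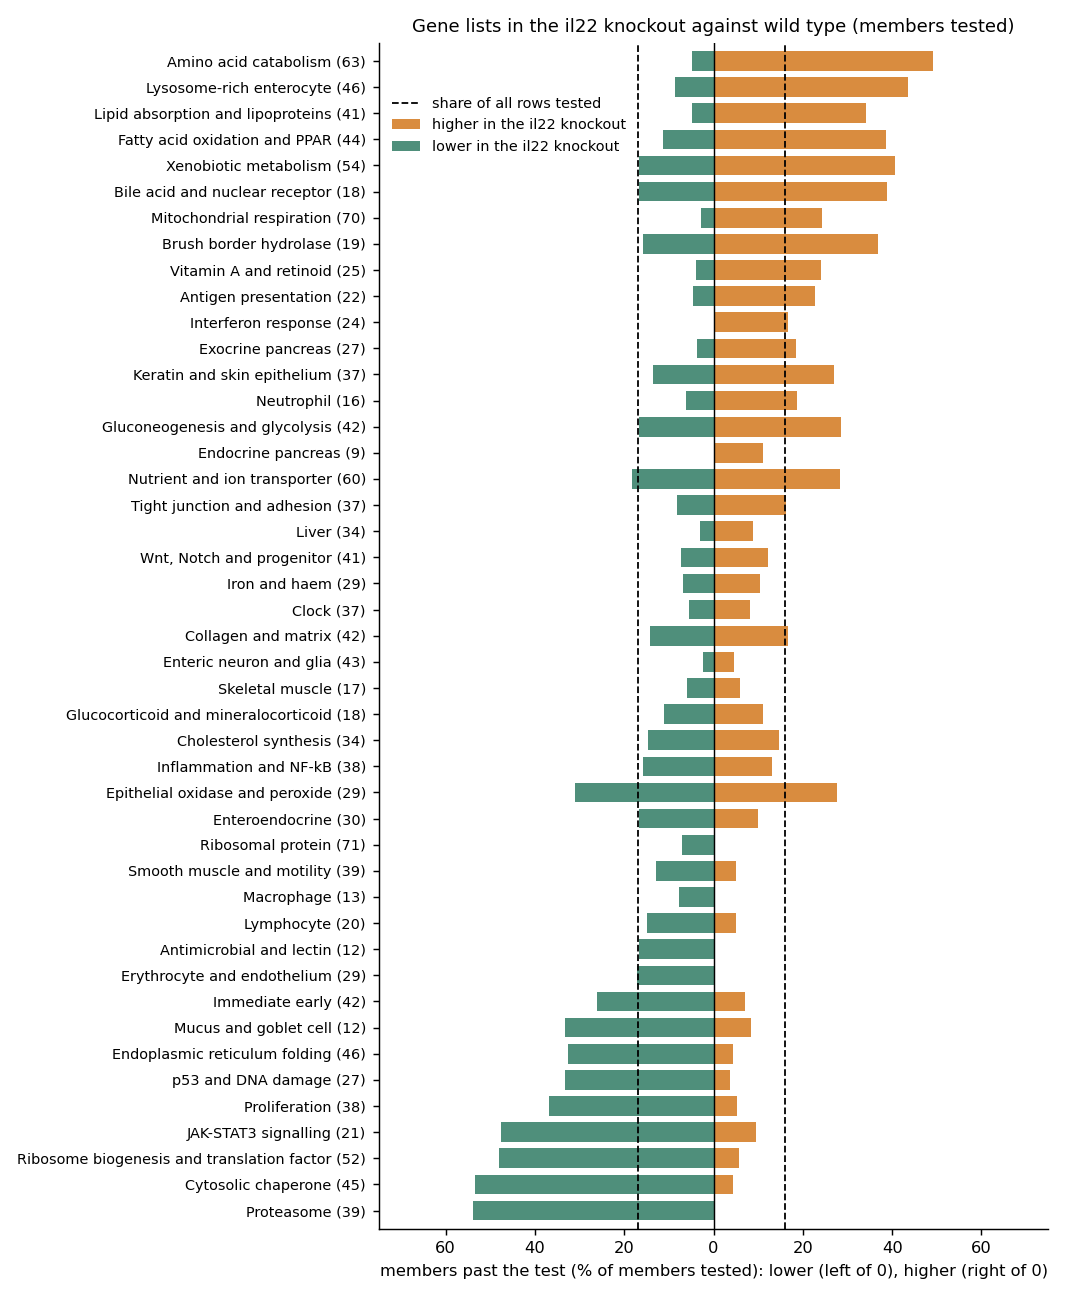
Share of tested members past the test for each of 45 gene lists, with members higher in the il22 knockout to the right and members lower to the left; the number in brackets is the members tested. Dashed lines mark the shares over all transcripts tested, 16.1% higher and 17.0% lower. Amino acid catabolism and lysosome-rich enterocyte genes have the largest higher shares (49.2% and 43.5%), and proteasome and cytosolic chaperone genes the largest lower ones (53.8% and 53.3%).

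The lists with the largest lower shares were those of protein folding, turnover and synthesis. Of 45 genes in the cytosolic chaperone list 24 fell and 2 rose (median log2 fold change −0.29). This list also holds the mitochondrial chaperone genes hspd1 and hspa9, which fell, and the regulator gene hsf1, which rose. The chaperonin ring, which folds actin and tubulin, was singled out after its values were seen: 7 of its 8 subunit genes fell and none rose. Its subunit gene cct2 had 140, 137, 156 and 152 CPM in the knockout and 305, 300, 320 and 329 CPM in wild type (log2 fold change −1.1 ± 0.07, adjusted p = 7.1e-06). The HSP70-HSP90 bridging gene stip1 had 76.4, 76.7, 76.2 and 75.5 CPM in the knockout and 129, 121, 117 and 124 CPM in wild type (log2 fold change −0.69 ± 0.06). Both genes were lower in every knockout library, and the knockout libraries of stip1 all lay between 75.5 and 76.7 CPM.

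The proteasome degrades ubiquitinated proteins. Of 39 subunit genes tested 21 fell, none rose and 18 did not pass, with a median log2 fold change of −0.27. In the regulatory cap, the ATPase subunit gene psmc4 had 37.9, 31.8, 37.2 and 36.1 CPM in the knockout and 54.3, 51, 53.5 and 56.1 CPM in wild type (log2 fold change −0.59 ± 0.07, adjusted p = 0.00027), and the scaffold subunit gene psmd1 had 78.3, 78.3, 90.8 and 90.9 CPM in the knockout and 120, 125, 127 and 134 CPM in wild type. In the catalytic core, psmb7 had 64.7, 62.5, 56.5 and 53.4 CPM in the knockout and 81.5, 75, 86.7 and 87.2 CPM in wild type. All 3 were lower in every knockout library. The changes were small, from −0.18 for psma4 to −0.83 for psmd11b on the log2 scale among the 21, psma4 not passing without wild types 1 to 4 or knockouts 1, 2 or 4 in turn (adjusted p = 0.0561 to 0.103). The count lay between 18 and 24 under each scaling, clock state and left-out library tried.

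Ribosome assembly and translation factor genes gave a similar picture, with 25 of 52 lower and 3 higher (median log2 fold change −0.24). The nucleolar gene bop1, needed for the large subunit, had 23.4, 24.4, 28.9 and 28.3 CPM in the knockout and 38.1, 40.9, 40.6 and 40.4 CPM in wild type (log2 fold change −0.61 ± 0.08, adjusted p = 0.00049). The ribosomal RNA methyltransferase gene nop2 had 41.4, 38.6, 37.4 and 39.6 CPM in the knockout and 52.8, 53, 58.9 and 54.3 CPM in wild type (log2 fold change −0.48 ± 0.06). The seryl-tRNA synthetase gene sars1 had 73.2, 78.9, 83.1 and 88.8 CPM in the knockout and 155, 123, 125 and 137 CPM in wild type. These 3 genes did not overlap. The alanyl-tRNA synthetase gene aars1 was an exception, with 35.4, 30.7, 32.2 and 33.5 CPM in the knockout and 6.71, 3.4, 0.031 and 4.02 CPM in wild type (log2 fold change 3.21 ± 0.74, adjusted p = 0.014). Whether the transcript counted for aars1 stands for the whole gene was not tested. The translation repressor gene eif4ebp1, which holds back cap-dependent initiation, rose by 0.79 ± 0.09.

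Few ribosomal protein genes passed. Of 71 tested 5 fell and none rose, and 66 of the 71 had a negative log2 fold change, with a median of −0.11. rplp1 had 2942, 3142, 2998 and 2952 CPM in the knockout and 3594, 3504, 3801 and 3697 CPM in wild type (log2 fold change −0.28 ± 0.06). The count depended on scaling, with 5 to 33 lower across the scalings tried and the highest on the TPM scale. It was 1 of 72 in the libraries low in nr1d1, 25 of 73 in the high ones, and 2 to 7 when 1 library was left out. Of 46 genes of endoplasmic reticulum folding and stress 15 fell and 2 rose. The disulfide isomerase gene pdia6 had 40.9, 41.9, 42.4 and 39.1 CPM in the knockout and 84.7, 71, 75.9 and 72.3 CPM in wild type (log2 fold change −0.89 ± 0.07, adjusted p = 2.7e-05), and the asparagine synthetase gene asns had 15.4, 13.7, 12.5 and 15.2 CPM in the knockout and 27.5, 25.5, 37.7 and 30.3 CPM in wild type. The stress regulators atf4b and ddit3 did not pass (adjusted p = 0.851 and 0.438). Of other stress regulators in the list, xbp1 rose and atf6 fell (log2 fold change 0.22 and −0.38).

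**Figure D4:**
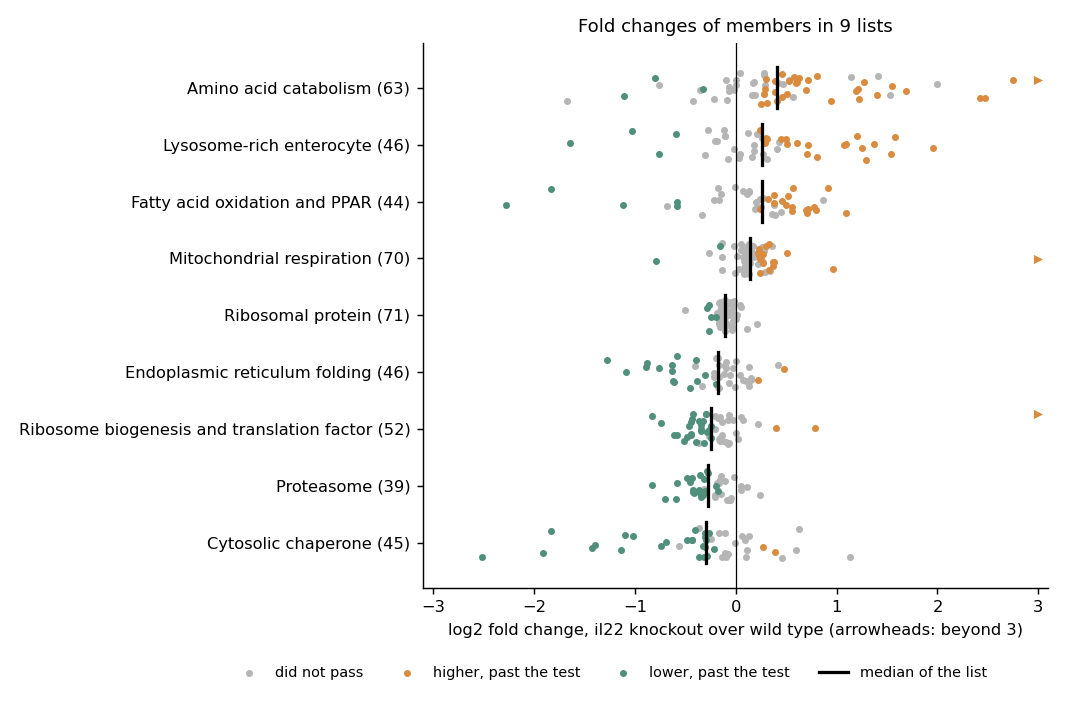
Log2 fold changes, il22 knockout over wild type, of the tested members of 9 lists, coloured by the test, with a bar at each list's median; arrowheads mark members beyond 3. Most members of the proteasome, ribosome biogenesis and ribosomal protein lists lie left of 0 (35 of 39, 45 of 52 and 66 of 71). Amino acid catabolism and lysosome-rich enterocyte genes spread to the right.

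Of 38 proliferation genes 14 fell and 2 rose. The replication polymerase gene pold1 had 7.63, 6.95, 8.65 and 7.94 CPM in the knockout and 12, 14.5, 14.3 and 10.9 CPM in wild type (log2 fold change −0.73 ± 0.12, adjusted p = 0.00139), and the DNA ligase gene lig1 fell by 0.74 ± 0.12. Without wild type 2 or without wild type 3 the count was 9 lower, and without knockout 4 and wild type 2, the libraries with most liver transcripts, it was 4. Of 27 p53 and DNA damage genes 9 fell and 1 rose, among them parp1, an enzyme that marks DNA breaks, with 12.8, 13.4, 12.3 and 11.2 CPM in the knockout and 29.5, 23.2, 18.9 and 20.9 CPM in wild type (log2 fold change −0.89 ± 0.13).

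Amino acid catabolism had the largest higher share of the 45 lists: 31 of 63 genes rose and 3 fell, with a median log2 fold change of 0.41. Liver markers leaned the same way: 32 of 34 liver genes tested had a positive log2 fold change, with a median of 0.85, though 3 rose and 1 fell by the test. Their part in the amino acid, bile acid and glycogen genes described here was not tested. In histidine breakdown, uroc1 had 163, 196, 155 and 170 CPM in the knockout and 6.37, 6.59, 7.78 and 5.47 CPM in wild type, and ftcd, which hands the product to folate, had 29.5, 28, 41.8 and 52 CPM in the knockout and 6.48, 8.73, 7.07 and 4.88 CPM in wild type (log2 fold change 2.47 ± 0.24, adjusted p = 0.00014). For both genes every knockout library was far above every wild type one. The pathway's first enzyme gene hal overlapped, with 1.05, 0.525, 1.87 and 5.84 CPM in the knockout and 0.396, 2.94, 0.775 and 0 CPM in wild type (adjusted p = 0.469), and so did the later enzyme gene amdhd1 (adjusted p = 0.278).

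In tryptophan breakdown, the rate-limiting dioxygenase gene tdo2a had 267, 281, 184 and 176 CPM in the knockout and 76.3, 76.9, 62 and 66.7 CPM in wild type (log2 fold change 1.69 ± 0.17, adjusted p = 0.00011). The next enzyme gene, afmid, had 63.1, 68.1, 61.2 and 56.8 CPM in the knockout and 19.9, 25.6, 24 and 24.7 CPM in wild type (log2 fold change 1.4 ± 0.09), and kmo, which follows it, rose by 1.22 ± 0.21. Consecutive steps of the pathway were thus higher together. The glyoxylate aminotransferase gene agxta had 80.2, 84.1, 71.2 and 93.7 CPM in the knockout and 25.1, 31, 28.4 and 27.9 CPM in wild type (log2 fold change 1.55 ± 0.10, adjusted p = 7.1e-06). The leucine breakdown gene ivd had 307, 323, 251 and 246 CPM in the knockout and 136, 113, 126 and 111 CPM in wild type. Knockouts 1 and 2 were the higher pair for tdo2a and ivd, and knockouts 3 and 4 for ftcd.

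The 3 members that fell were arg2, odc1 and gls2b, the last of which did not pass without knockouts 1 or 2 or wild types 1, 3 or 4 (adjusted p = 0.0504 to 0.0671). The mitochondrial arginase gene arg2 had 273, 253, 260 and 261 CPM in the knockout and 478, 423, 468 and 449 CPM in wild type (log2 fold change −0.80 ± 0.06, adjusted p = 3e-05), and odc1, the first enzyme of polyamine synthesis from its product ornithine, had 6.59, 7.66, 11.2 and 12.7 CPM in the knockout and 19.3, 21.3, 18.4 and 23.4 CPM in wild type (log2 fold change −1.11 ± 0.20). The catabolism counts were 30 higher and 4 lower of 64 in the libraries low in nr1d1 and 36 higher and 7 lower of 64 in the high ones.

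In the lipid absorption list 14 of 41 genes rose, 2 fell and 25 did not pass. The retinol-binding protein gene rbp2a, an enterocyte carrier of vitamin A, had 1673, 1572, 1554 and 1696 CPM in the knockout and 551, 423, 533 and 509 CPM in wild type (log2 fold change 1.69 ± 0.09, adjusted p = 2.9e-06). The fatty acid transporter gene slc27a1b had 4.22, 4.57, 2.6 and 4.52 CPM in the knockout and 0.538, 1.07, 0.558 and 0.387 CPM in wild type (log2 fold change 2.62 ± 0.32). The acyltransferase gene agpat2 and the fatty acid activating gene acsl1b rose by 0.85 ± 0.10 and 0.97 ± 0.12. All 4 were higher in every knockout library. The apolipoprotein gene apoa4b.1, by contrast, had 4230, 4044, 4076 and 4279 CPM in the knockout and 6734, 4688, 5663 and 4769 CPM in wild type (log2 fold change −0.39 ± 0.11), and did not pass without knockout 2 or 3 or wild type 3 (adjusted p = 0.0533 to 0.065).

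Fatty acid oxidation genes rose in 17 of 44 cases and fell in 5. The medium-chain dehydrogenase gene acadm had 507, 491, 474 and 467 CPM in the knockout and 330, 279, 286 and 301 CPM in wild type (log2 fold change 0.70 ± 0.07, adjusted p = 0.00012). The members that fell included secreted factors that PPAR receptors are known to induce. The hormone gene fgf21 had 0.339, 0.371, 0.888 and 1 CPM in the knockout and 1.7, 2.53, 3.78 and 4.61 CPM in wild type (log2 fold change −2.28 ± 0.43, adjusted p = 0.00351). The lipoprotein lipase inhibitor gene angptl4 had 87.4, 47.7, 42.5 and 38.8 CPM in the knockout and 210, 251, 201 and 109 CPM in wild type (log2 fold change −1.83 ± 0.33). The peroxisomal gene hsd17b4 rose by 0.78 ± 0.14 on the log2 scale.

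Bile acid genes rose in 7 of 18 cases and fell in 3. The rate-limiting enzyme gene of bile acid synthesis, cyp7a1, averaged 99.8 ± 27.8 CPM in knockout libraries and 19.6 ± 13.9 CPM in wild type ones (SD, n = 4 each; log2 fold change 2.35 ± 0.47, adjusted p = 0.00767). Even the highest wild type library, wild type 3 at 40.3 CPM, lay below the lowest knockout one, knockout 3 at 65.1 CPM. Yet cyp7a1 passed neither in the libraries low in nr1d1 alone nor in the high ones alone. The sterol hydroxylase gene cyp8b1.1 rose by 1.27 ± 0.15, while the ileal exporter gene slc51a fell by 0.56 ± 0.10. As cyp7a1 is a liver gene in mammals, a liver marker is set beside it: serpina1 had 5.85, 2.9, 8.39 and 45 CPM in the knockout and 0.34, 27.9, 1.15 and 0.357 CPM in wild type, and did not pass over all 8 libraries (adjusted p = 0.636). It did pass without wild type 2 (adjusted p = 0.0302), without both knockout 4 and wild type 2 (adjusted p = 0.00776) and in the libraries high in nr1d1 (adjusted p = 0.00301). The liver list, with 3 of 34 higher over all 8 libraries, had 16 higher without wild type 2, 19 of 33 in the libraries high in nr1d1 and 4 of 36 in the low ones. Without knockout 4 and wild type 2, the libraries with the most serpina1, 13 of 29 liver genes were higher (median log2 fold change 1.08), beside 29 of 63 amino acid genes and 7 of 18 bile acid genes. The liver count thus varied with the libraries compared, and the part of liver transcripts in the other lists was not tested.

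Lysosome-rich enterocytes take up luminal protein and digest it in large lysosomes. Of 46 of their genes 20 rose and 4 fell (median log2 fold change 0.27). The glycosidase gene man2b1 had 1637, 1534, 1610 and 1235 CPM in the knockout and 593, 591, 492 and 398 CPM in wild type (log2 fold change 1.54 ± 0.14, adjusted p = 7.1e-05). The protease gene lgmn had 6364, 5048, 4846 and 3109 CPM in the knockout and 1158, 1347, 1423 and 1067 CPM in wild type. For both genes knockout 4 was the lowest of its genotype, and still above every wild type library. The glycolipid-digesting genes gla and naga rose by 1.29 ± 0.14 and 1.07 ± 0.16, the cholesterol carrier gene npc2.1 by 1.09 ± 0.12, and tfeb, a regulator of lysosomal genes, by 0.72 ± 0.17.

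The genes that fell in this list were mostly lysosomal too. The membrane protein gene lamp1b had 14.4, 13.5, 15.4 and 12.4 CPM in the knockout and 23.6, 23.6, 23.5 and 23.6 CPM in wild type (log2 fold change −0.76 ± 0.08, adjusted p = 0.00011). The cathepsin L gene ctsla had 550, 558, 552 and 554 CPM in the knockout and 1375, 961, 1239 and 955 CPM in wild type, whereas the related ctsl.1 had 8017, 7722, 8477 and 5729 CPM in the knockout and 3483, 3687, 3433 and 2462 CPM in wild type. These paralogs differed in opposite directions, neither with an overlap. The count for the list was 15 higher of 46 in the libraries low in nr1d1 and 25 of 46 in the high ones.

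Carbohydrate genes moved both ways, with 12 of 42 higher and 7 lower. The glycogen synthase gene gys2, the liver form in mammals, had 45.8, 58.7, 44.3 and 54.4 CPM in the knockout and 9.51, 12.8, 12.3 and 7.73 CPM in wild type (log2 fold change 2.26 ± 0.17, adjusted p = 2.3e-05). The pyruvate carboxylase gene pcxb, which feeds gluconeogenesis, had 551, 567, 536 and 675 CPM in the knockout and 311, 246, 268 and 261 CPM in wild type (log2 fold change 1.1 ± 0.10). Both were higher in every knockout library. Glycolytic genes moved both ways. eno1b fell, with 3.39, 3.12, 4.54 and 3.52 CPM in the knockout and 17.7, 22.6, 22.3 and 26.5 CPM in wild type (log2 fold change −2.61 ± 0.15). hk1 fell by 1.75 ± 0.29 on the log2 scale, and ldhba, hk2 and aldoaa fell as well (log2 fold change −0.92, −0.88 and −0.27). Against these, gpib, ldha, pfklb, aldoab and pklr rose (log2 fold change 0.98, 0.87, 0.85, 0.62 and 0.39).

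Transporter genes moved both ways: 17 of 60 transporter genes rose and 11 fell. The sodium-glucose transporter gene slc5a1 had 699, 659, 597 and 678 CPM in the knockout and 1610, 1222, 1359 and 1357 CPM in wild type (log2 fold change −1.07 ± 0.09, adjusted p = 4.8e-05). The neutral amino acid transporter gene slc6a19b had 1034, 1128, 1095 and 1299 CPM in the knockout and 2068, 1987, 1996 and 1991 CPM in wild type (log2 fold change −0.82 ± 0.08), and the peptide transporter gene slc15a1b fell by 0.64 ± 0.16. All 3 uptake genes were lower in every knockout library. The manganese exporter gene slc30a10 was higher, with 245, 244, 154 and 149 CPM in the knockout and 67.3, 52.2, 52.9 and 60.4 CPM in wild type (log2 fold change 1.77 ± 0.19).

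Paralogs of some transporters differed in opposite directions. The sodium pump subunit gene atp1a1a.4 had 8454, 8587, 7967 and 8922 CPM in the knockout and 4333, 4404, 4401 and 4648 CPM in wild type (log2 fold change 0.93 ± 0.06, adjusted p = 8.7e-06). Its neighbour in name atp1a1a.3 had 2.06, 1.64, 2.5 and 3.45 CPM in the knockout and 16.8, 14.2, 14.4 and 18 CPM in wild type (log2 fold change −2.72 ± 0.21). The phosphate transporter gene slc34a2a rose by 0.94 ± 0.20 while slc34a2b fell by 1.3 ± 0.20. Reads of such close copies could have been split by the counting. Among 19 brush border hydrolase genes 7 rose and 3 fell, with the angiotensinase gene enpep at 821, 928, 707 and 670 CPM in the knockout and 1314, 1421, 1363 and 1438 CPM in wild type, and the meprin gene mep1a.2 at 1106, 1147, 634 and 693 CPM in the knockout and 508, 310, 267 and 355 CPM in wild type.

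**Figure D5:**
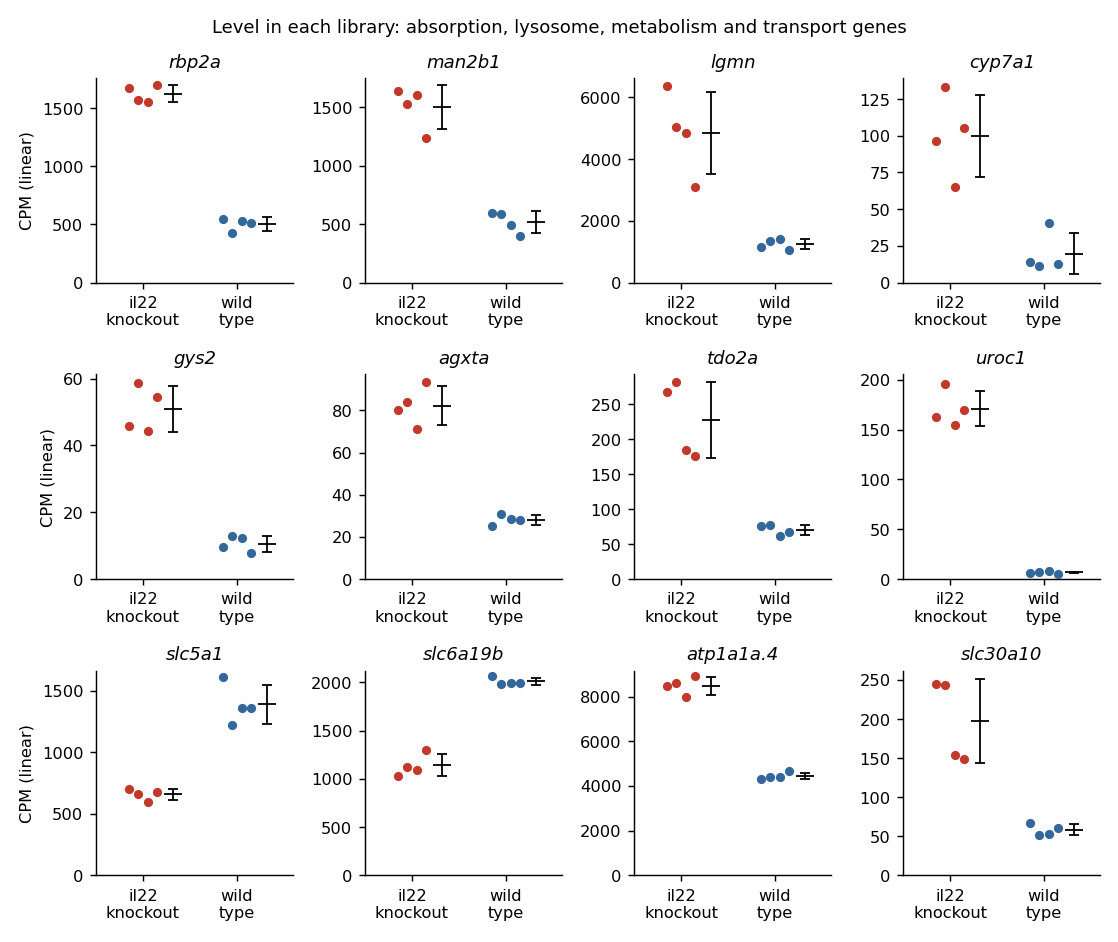
CPM on a linear axis in each il22 knockout library (red, left) and each wild type library (blue, right) for 12 genes of absorption, lysosome, metabolism and transport; bars give the mean and SD of 4 libraries. Knockout libraries lie above the wild type ones in 10 panels and below them for slc5a1 and slc6a19b; knockouts 1 and 2 are the higher pair for tdo2a and slc30a10.

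Detoxification genes were mixed at a high rate of change, with 22 of 54 higher and 9 lower. The sulfotransferase gene sult3st2 had 3.45, 2.32, 4.21 and 4.1 CPM in the knockout and 0.142, 0.194, 0.155 and 0.327 CPM in wild type (log2 fold change 4.08 ± 0.31, adjusted p = 2.2e-05). In the cytochrome P450 family, cyp2aa2 had 3.14, 4.29, 3.68 and 3.75 CPM in the knockout and 24.7, 29.9, 28.2 and 26.5 CPM in wild type (log2 fold change −2.88 ± 0.11), whereas its relative cyp2aa4 rose by 2.46 on the log2 scale. Of 25 vitamin A genes 6 rose and 1 fell, of 34 cholesterol synthesis genes 5 rose (8 without wild type 1) and 5 fell, and of 29 iron and haem genes 3 rose and 2 fell, with 2 higher in the libraries low in nr1d1 and 9 in the high ones. In haem synthesis cpox averaged 13 ± 1.54 CPM in knockout libraries and 41.4 ± 6.93 CPM in wild type ones (SD, n = 4 each; log2 fold change −1.67 ± 0.13, adjusted p = 3e-05). Of 70 genes of mitochondrial respiration 17 rose and 2 fell, a count that lay between 6 and 18 higher across scalings. It was 7 without wild type 2 or 4, 8 without knockout 2, 9 without wild type 3, 11 without knockout 1 and 26 without wild type 1, with 24 of 70 in the libraries low in nr1d1 and 9 of 71 in the high ones.

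Of the structural lists, keratin and skin genes were called at 40.5%, against 33.1% among all transcripts tested. Junction genes (24.3%) and collagen and matrix genes (31.0%) did not exceed that share. The keratin gene krt91 had 985, 1254, 1351 and 1354 CPM in the knockout and 625, 547, 601 and 357 CPM in wild type (log2 fold change 1.22 ± 0.18, adjusted p = 0.00099), and 10 of 37 keratin and skin genes rose and 5 fell. Keratins are close copies, and their counts are uncertain for that reason. Of 37 junction genes 6 rose and 3 fell. Of 42 collagen and matrix genes 7 rose, or 4 without wild type 4, and 6 fell.

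Cell types other than enterocytes were examined with their own lists. Of 30 enteroendocrine genes 3 rose and 5 fell. Leaving out 1 library gave 1 to 3 higher, with 1 without knockout 4 or wild type 2, 3 or 4, and 2 to 5 lower, with 2 without knockout 1 or wild type 3 and 3 without knockout 2 or 4 or wild type 1. In the libraries low in nr1d1 6 of 30 rose and 2 fell (median log2 fold change 0.22), and in the high ones none of 34 rose and 13 fell (median −0.54). The serotonin synthesis gene tph1b had 2.62, 1.51, 4.18 and 4.04 CPM in the knockout and 9.45, 4.64, 7.41 and 5.29 CPM in wild type (log2 fold change −1.12 ± 0.34, adjusted p = 0.031), and the hormone-processing inhibitor gene pcsk1nl had 10.5, 9.83, 20.7 and 16 CPM in the knockout and 9.79, 6.49, 6.42 and 8.24 CPM in wild type (log2 fold change 0.88 ± 0.25). The opioid precursor gene penka fell by 0.72 ± 0.19, with knockout 3 above wild type 2. Of the other members called, neurod1 and trpa1a rose (log2 fold change 0.52 and 1.36). The genes trpa1b, chgb and adcyap1a fell (log2 fold change −0.69, −2.07 and −0.45). tph1b and pcsk1nl did not overlap between the genotypes, but by narrow margins. tph1b did not pass without knockout 1 or wild type 1 or 3 (adjusted p = 0.0728 to 0.08), and pcsk1nl did not pass without knockout 3 or 4 or wild type 2, 3 or 4 (adjusted p = 0.05 to 0.0736).

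Few enteric neuron and glia genes passed, as 2 of 43 rose and 1 fell over all 8 libraries. In the libraries low in nr1d1 19 of 44 rose and 1 fell, whereas in the high ones none of 46 rose and 23 fell. The second count rests on wild type 1 alone as the wild type, the libraries were divided by a measured gene, and the difference between the states was not tested. phox2bb, a transcription factor gene that marks enteric neurons, had 9.11, 6.36, 18.2 and 12.4 CPM in the knockout and 16.2, 9.84, 9.09 and 8.48 CPM in wild type (adjusted p = 0.882). Nitric oxide synthase (nos1) averaged 18.1 ± 8.21 CPM in knockout libraries and 14.8 ± 2.88 CPM in wild type ones (SD, n = 4 each; quasi-likelihood adjusted p = 0.52). For both genes knockouts 3 and 4 were above knockouts 1 and 2, and wild type 1 was the highest of its genotype. The neuropeptide gene tac1 (substance P) did pass, with 0.77, 0.803, 1.64 and 1.74 CPM in the knockout and 0.481, 0.365, 0.186 and 0.535 CPM in wild type (log2 fold change 1.65 ± 0.40, adjusted p = 0.0113). However, tac1 did not pass in the libraries high in nr1d1 alone, nor without both knockout 4 and wild type 2.

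Smooth muscle and motility genes showed few calls, with 2 of 39 higher and 5 lower. Markers of the pacemaker cells, kita and ano1a, averaged 25.2 ± 1.85 and 4.23 ± 0.617 CPM in the knockout and 23.4 ± 2.51 and 4.48 ± 0.682 CPM in wild type (SD, n = 4) and did not pass (adjusted p = 0.403 and 0.706, quasi-likelihood test). The serum response factor paralogs moved apart, as srfa rose by 0.56 ± 0.09 and srfb fell by 1.16 ± 0.17 on the log2 scale. In the libraries high in nr1d1 15 of 38 of these genes fell, and in the low ones 3 of 39.

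Of 29 erythrocyte and endothelial genes none rose and 5 fell, a share near the 17.0% lower among all transcripts. The hyaluronan and lipoprotein scavenger receptor gene stab2 had 0.462, 0.618, 0.461 and 0.969 CPM in the knockout and 3.09, 4.04, 2.67 and 2.05 CPM in wild type (log2 fold change −2.24 ± 0.30, adjusted p = 0.00053). The hyaluronan receptor gene lyve1a had 4.34, 6.24, 5.49 and 5.26 CPM in the knockout and 10.8, 11.9, 9.43 and 9.31 CPM in wild type (log2 fold change −0.96 ± 0.13). The lymphatic growth factor receptor gene flt4 fell by 0.71 ± 0.16 and stab1 by 0.77 ± 0.15. The red cell anion exchanger gene slc4a1a fell by 1.73 on the log2 scale and did not pass without knockout 2 or 3 or wild type 1 or 3 (adjusted p = 0.0589 to 0.0637). The vessel genes kdrl and cdh5 and the lymphatic regulator gene prox1a did not pass (log2 fold change 0.29, 0.14 and −0.27), but kdrl did without wild type 2 (adjusted p = 0.0155) and prox1a without knockout 4 (adjusted p = 0.0316). Exocrine pancreas genes rose in 5 of 27 cases and fell in 1, the lipase gene cel.2 having 1135, 1112, 874 and 1319 CPM in the knockout and 337, 262, 387 and 423 CPM in wild type. Of 17 skeletal muscle genes 1 rose and 1 fell, of 9 endocrine pancreas genes 1 rose, of 18 glucocorticoid and mineralocorticoid genes 2 rose and 2 fell, and of 41 Wnt, Notch and progenitor genes 5 rose and 3 fell.

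The largest differences among genes of at least 5 CPM in the higher genotype were close to all or none. hsd11b1la had 8.56, 7.91, 7.86 and 9.17 CPM in the knockout and 0, 0.0486, 0 and 0 CPM in wild type. The selenoprotein gene selenol had 46.5, 47.1, 35.4 and 31.8 CPM in the knockout and 0.226, 0.243, 0.093 and 0.149 CPM in wild type (log2 fold change 7.76 ± 0.24). Also near absent from wild type was mybpc2b, a myosin-binding protein gene of fast muscle, with 8, 8.93, 12.2 and 14.7 CPM in the knockout and at most 0.17 CPM in wild type. The succinate dehydrogenase subunit gene sdhc averaged 9.31 ± 4.07 CPM in knockout libraries and 0.177 ± 0.106 CPM in wild type ones (SD, n = 4 each). Its partner subunit genes sdha, sdhb and sdhdb did not pass (log2 fold change 0.05, 0.17 and 0.16). These levels are of single RefSeq transcripts, and whether each stands for its whole gene was not tested. Among the 15 largest rises 5 were copies in the ggact and plxnb2a families, which are uncertain.

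In the other direction, rrm2l, a gene of the ribonucleotide reductase family, had no count in any knockout library and 5.75, 7.46, 8.87 and 5.8 CPM in wild type. The helicase gene ddx43 had 0.954, 0.0618, 0.263 and 0.613 CPM in the knockout and 22.2, 20.6, 21.7 and 24.8 CPM in wild type (log2 fold change −5.55 ± 0.44). The centriole gene spice1 had 1.39, 1.14, 1.25 and 1.07 CPM in the knockout and 22.1, 23.7, 22.2 and 20.8 CPM in wild type (log2 fold change −4.19 ± 0.10, adjusted p = 3.6e-08). Replicates of spice1 agreed closely in both genotypes. Of the genes near all or none, sdhc is also counted in the list of mitochondrial respiration. Over all transcripts 4.21% were called higher and 4.13% lower by more than 2-fold.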

How the data were processed

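Poly(A) RNA from pools of dissected larval guts was sequenced after stranded TruSeq library preparation on an Illumina NovaSeq, per the labels' protocols, which also name FastQC 0.11.8 and the zebrafish build danRer11. Which aligner, counter, strand setting and annotation served is not given in the sources used here. Deposited by the authors were raw counts per RefSeq transcript and TPM side by side. Of 16134 rows, 15776 received a gene symbol from the RefSeq table of assembly GRCz12tu, used for names and gene order only, and the 358 others held 0.414% of counts. For symbols shared by several rows (622), the row with most counts stands for the gene. TPM was not given for 1886 rows with 1.4% of counts.

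Counts of the 4 il22 knockout and 4 wild type libraries were tested in R 4.3.3 by edgeR 4.0.16 (scaled by TMM, the default filter on low counts by group, robust quasi-likelihood F test, Benjamini-Hochberg adjustment over 10710 rows, threshold 0.05). The SE of a log2 fold change is its size divided by the square root of F. The common biological coefficient of variation was 0.181. Fold changes of genes at or near 0 counts depend on edgeR's prior count. The script was checked on simulated counts. Alternatives were DESeq2 1.42.0, limma 3.58.1 on log2(TPM + 1) and log2(TPM + 0.1), RLE and upper quartile scaling, a filter of 10 CPM in 4 libraries, no filter, rows summed by symbol, no robust dispersion, the replicate number as a block, and each library left out. The comparison and the 45 gene lists were chosen with earlier results of these data known. The lists hold 2277 entries, of which 1899 were in the table and 1552 passed the filter, and list counts are over those that passed. Named genes are il22, the 15 largest rises and 15 largest falls among called, non-overlapping genes with at least 5 CPM in the higher genotype, the 10 called genes of highest TPM, up to 4 genes of smallest p per list, and other list members beside their list's count. Not all of them are printed. Genes with close copies are uncertain, as the counting may have split their reads.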

Additional observations from a re-analysis of the deposited data

Results flagged for a closer look

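Of 308 groups of 4 libraries examined for the printed genes, 20 held a library whose gap to the nearest other, as a share of the group's range, exceeded Dixon's critical value, which chance does in about 1 in 20 groups. Wild type 1 stood apart in 8 of them. It was high for nr1d1 at 199 CPM (others 18.7 to 26.6), per1a at 47 CPM (4.46 to 6.61), dbpa at 7.36 CPM (1.9 to 2.48) and bhlhe41 at 11.9 CPM (6.19 to 6.33), and low for bmal1b at 4.39 CPM (11.5 to 12.5). These 5 are clock genes. It was also high for agpat2 at 248 CPM (211 to 215) and slc6a19b at 2068 CPM (1987 to 1996), and low for cxcl20 at 15.3 CPM (23.7 to 24.6).

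Wild type 4 stood apart upwards for nox1 at 56.6 CPM (others 28.2 to 29.5), noxo1b at 58.5 CPM (18.4 to 20.6), il1b at 13.6 CPM (3.4 to 4.86), tnfa at 2.05 CPM (0.705 to 0.775) and il26 at 2.11 CPM (0.535 to 0.566). All 5 are genes of oxidase or cytokine function, and wild type 4 also had the highest il22 level. Among the liver genes, serpina1 was high in knockout 4 at 45 CPM (others 2.9 to 8.39) and in wild type 2 at 27.9 CPM (0.34 to 1.15). The lymphatic regulator gene prox1a was also high in knockout 4, at 8.56 CPM (others 5.54 to 5.81). The bile acid gene cyp7a1 was high in wild type 3 at 40.3 CPM (others at most 14.3), and the RNA sensor gene ifih1 in wild type 2 at 17.7 CPM (10.5 to 11.5). The intelectin gene itln2 had 0.23 CPM in knockout 3 (others 0.0309 to 0.0646), and hsd11b1la had 0.0486 CPM in wild type 2 with no count in the other wild type libraries, both near the limit of counting.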

How the results depend on the processing

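The comparison called 3541 transcripts, 1725 higher and 1816 lower in the knockout, and no call shared with any alternative changed direction. The count was 3108 to 3927 under other tools, scalings, dispersion settings and no filter, 2850 to 3388 when 1 library was left out, and 2398 with the stricter count filter, which tests fewer rows and called 1205 lower. On the log2(TPM + 1) scale 1280 were higher and 1828 lower. Replicate numbers do not pair the libraries: deviations of same-numbered libraries correlated at 0.333, −0.059, 0.023 and −0.022, and with the replicate block 1656 were higher and 1693 lower. The mean log2 CPM difference of il22 was −2.54 (exact permutation p = 0.0286). With the replicate block it was −2.54 (exact p = 0.125), and without any 1 library −2.86 to −2.22 (exact p = 0.0571), each the smallest p of its design. The remaining alternatives were chosen after seeing the data. In the libraries low in nr1d1 the il22 difference was −1.97 (exact p = 0.2), and without knockout 4 and wild type 2, richest in liver transcripts, −2.90 (exact p = 0.1), where no smaller p than these was possible. The high nr1d1 libraries allow no exact test. Their comparison called 3930 transcripts, that of the low ones 3331, and that with nr1d1 as a covariate 3935. Signs turned, with a pass under the alternative, for printed genes of clock and neuron lists that had not passed over all 8 libraries. In the low libraries the log2 fold changes were 0.36 for bmal1b, −0.92 for dbpa and −1.61 for per1a, in the high ones −0.75 for nos1 and −1.06 for phox2bb, and with the covariate −1.48 for per1a. Of the other values of printed genes, 3203 kept their side of the threshold, 91 lost the call and 29 gained one, villin (vil1) among them without wild type 1. Any change of sign where neither fit passed is counted among the 3203. The pools were 4 per genotype, and the share called grew with level, at 24.8% in the lowest and 38.3% in the highest quartile of mean CPM. The causes of these changes were not tested.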

Other observations

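The knockout libraries fell into pairs, knockouts 1 and 2 and knockouts 3 and 4. The transcripts given here were chosen after their values were seen. 4 genes had at most 0.25 CPM in knockouts 1 and 2 and at least 2 CPM in knockouts 3 and 4, and 2 genes had the reverse. The glucuronosyltransferase gene ugt2a3 had 0, 0, 12.8 and 11.8 CPM in the knockout and 41.2, 39.9, 37.7 and 43.5 CPM in wild type, and its relative ugt2a2 had 0, 0, 2.93 and 2.07 CPM in the knockout and 14.1, 15.2, 13.7 and 16.4 CPM in wild type. ndfip1, an adaptor gene of ubiquitin ligases, had 0.123, 0.216, 64.5 and 75.3 CPM in the knockout and 40.4, 27.5, 13.7 and 27 CPM in wild type. The helicase gene ddx28 had 0, 0, 2.86 and 2.03 CPM in the knockout and 5.07, 4.72, 5.33 and 4.4 CPM in wild type. In the other direction, si:dkey-18p12.4 had 22, 22.1, 0 and 0 CPM in the knockout and 17.7, 10.2, 14.5 and 7.76 CPM in wild type. Within these pairs the knockout libraries were alike, and the pairs are also those that differ in nr1d1.

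The methionine salvage gene apip differed between the pairs as well, with 15.5, 15.9, 0.493 and 0.161 CPM in the knockout and 48.8, 49.8, 57.4 and 50.8 CPM in wild type. The cholesterol synthesis gene hmgcra averaged 25.7 ± 15.8 CPM in knockout libraries and 6.42 ± 3.54 CPM in wild type ones (SD, n = 4 each), with knockouts 1 and 2 the highest of the 8 libraries. Over all rows tested, libraries of different genotype correlated at 0.96 to 0.968, knockout libraries among themselves at 0.982 to 0.994 and wild type libraries among themselves at 0.986 to 0.993. Knockouts 1 and 2 correlated at 0.994 and knockouts 3 and 4 at 0.992, above the 0.982 to 0.985 between those pairs. The second principal component, with 15.9% of the variance, also parted them. Knockouts 1 and 2 lay at 18.63 and 20.33 on it, and knockouts 3 and 4 at −18.68 and −23.72. These are descriptions across genes, which are not independent replicates.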
